A study of Mus musculus with 2 samples.

Results

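Transcripts of 8 genes that mark Schwann cell precursors and other glial progenitors were examined in the mandibular prominence, the facial swelling of the embryo that forms the lower jaw and the front of the tongue. The genes were taken by symbol (Sox10, Foxd3, Erbb3, Fabp7, Ednrb, Cdh19, Gfra3 and S100b), and all 8 were present among the 30723 gene symbols of the deposited tables, with 12 transcripts between them. There were 2 libraries, 1 per group, each made from total RNA of mandibular prominences pooled from 10 embryos on a mixed CD1 background. The control group is labelled only as control, and its alleles are not stated in the labels. The mutant group is labelled Kif3a f/f ; Wnt1-Cre: it carried floxed Kif3a, the gene of a kinesin-2 motor subunit needed to build the primary cilium, and a Cre recombinase under Wnt1 regulation, which recombines in neural crest cells and in the dorsal neural tube.

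Glial cells of the cranial nerves descend from the neural crest, so they lie within the Wnt1-Cre lineage. Schwann cell precursors travel along growing axons, depend on neuregulin from those axons, which they read through ErbB3 and ErbB2, and keep expressing crest factors such as Sox10 and Foxd3. They are also a source of melanocytes, parasympathetic neurons and other cells. In a jaw primordium they accompany the branches of the trigeminal nerve and are a small minority beside mesenchyme and epithelium.

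The labels place both groups at E11.5, but the tables as named by the submitters say e11 for the mutant, and they come from separate sequencing runs. Stage, run and genotype therefore cannot be told apart. Depth, estimated from the deposited coverage, was about 24700000 fragments (control) and 24500000 (mutant). Kif3a had 11.46 FPKM in control and 5.39 in mutant tissue. FPKM is the number of sequenced fragments scaled to transcript length and to library size, so levels can be compared between genes. There is no replicate and no test between genotypes. Intervals in parentheses are 95% intervals for counting error on approximate fragment numbers, and they do not cover variation between embryos, dissections or library preparations.

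Regulatory sequence just upstream of the start site was at hand for 4 of the 8 genes (Foxd3, Fabp7, Ednrb and S100b). The stretches of Fabp7 and Foxd3 are shown because these genes had the lowest mutant to control ratios among the 4, and that of Ednrb because it precedes the start whose transcript was near 0 in the mutant. Sequences are from RefSeq on GRCm38.p6, read 5′ to 3′ on the strand of the gene, and end before the annotated start. Capitals mark matches, on either strand, to 5 short motifs: ACAAAG and ACAATG (bound by SOX factors), TGGGAA (RBPJ, the Notch effector), TGACGTCA (the cyclic AMP response element) and CACGTG (an E-box). The last pair was added after the Foxd3 sequence had been read.

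Fabp7, chr10:57784673-57784880, plus strand: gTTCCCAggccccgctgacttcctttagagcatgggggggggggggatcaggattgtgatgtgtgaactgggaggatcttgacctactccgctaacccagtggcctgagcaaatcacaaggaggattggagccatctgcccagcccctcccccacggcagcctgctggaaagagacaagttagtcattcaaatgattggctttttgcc

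Foxd3, chr4:99656049-99656298, plus strand: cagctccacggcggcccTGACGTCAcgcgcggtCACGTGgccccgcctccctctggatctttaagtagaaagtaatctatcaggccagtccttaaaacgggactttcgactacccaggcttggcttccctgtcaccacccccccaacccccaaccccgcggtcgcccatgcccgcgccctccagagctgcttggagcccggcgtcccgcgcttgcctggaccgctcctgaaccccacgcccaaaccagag

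Ednrb, chr14:103843702-103843951, minus strand: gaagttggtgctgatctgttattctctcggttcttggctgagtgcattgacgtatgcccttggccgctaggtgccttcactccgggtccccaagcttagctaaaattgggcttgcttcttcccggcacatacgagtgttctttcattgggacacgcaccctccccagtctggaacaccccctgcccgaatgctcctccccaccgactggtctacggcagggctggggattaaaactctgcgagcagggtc

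Fabp7 held TGGGAA on the reverse strand, starting at base 2 of the window. S100b also held it, as did 21.6% of all 32851 RefSeq windows of 250 bases. The search used 250 bases for every gene, and the Fabp7 sequence is printed to 208 bases because GENCODE has an earlier start. Foxd3 held TGACGTCA from base 18 and CACGTG from base 34, which do not overlap and occurred in 1.55% and 6.02% of all windows. The SOX motifs ACAAAG and ACAATG occurred in 16.5% and 10.7% of all windows and in 0 of the 4 windows of these genes. The Ednrb window held none of the 5 motifs. These are matches of letters and carry no information on binding.

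Values of all 8 genes were low. In the control library the order was Erbb3, Fabp7, Ednrb, Sox10, Foxd3, Gfra3, Cdh19 and S100b, from 3.93 down to 0.0649 FPKM. Erbb3 (3.56 to 4.33), Fabp7 (1.93 to 3.44) and Ednrb (1.34 to 1.84) were separated beyond counting error, whereas each later neighbour overlapped the one before it. In the mutant library the order was Erbb3, Ednrb, Fabp7, Sox10, Cdh19, Foxd3, Gfra3 and S100b, from 3.97 down to 0.0379 FPKM, and only Erbb3 was separated from its neighbour. The summed level of the 8 genes was 10.6 FPKM in control and 6.33 in mutant tissue, a ratio of 0.597. Erbb3 made up 37.1% of the control sum and 62.7% of the mutant sum. Without Erbb3 the sums were 6.66 and 2.36 FPKM, a ratio of 0.354. Fabp7 alone gave 2.61 of these 6.66 FPKM in control, so this ratio depends on which genes are summed. In bulk tissue, fewer glial cells and less RNA per cell cannot be told apart.

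**Figure D1:**
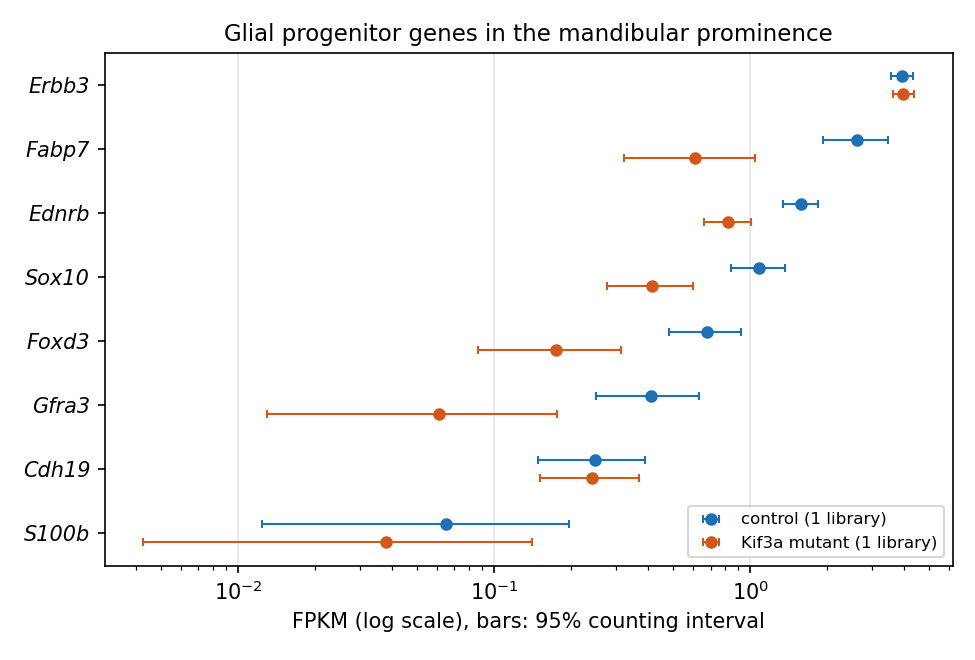
FPKM of each gene (log axis) in the 1 control and 1 mutant library, with 95% counting intervals as bars. Fabp7, Ednrb, Sox10, Foxd3 and Gfra3 lie lower in the mutant with intervals that do not overlap, while Erbb3 and Cdh19 coincide.

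Both genes for transcription factors of the glial lineage had lower values in the mutant. Sox10, the SoxE factor required for the glial fate of crest cells, lies on chromosome 15 from 79154909 to 79164506 (minus strand). Its control level was 1.08 FPKM and its mutant level 0.415, on about 70 and 28 fragments, a mutant to control ratio of 0.383 (0.238 to 0.601). Its full-length transcript of 2729 bases carried nearly all of the level in both libraries. The other transcripts were a fragment of 397 bases inside the last exon, in the 3′ part of the gene, and one of 494 bases, both listed at under 0.0001 FPKM.

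Foxd3, a forkhead factor that maintains crest progenitors and persists in their glial descendants, lies on chromosome 4 from 99656299 to 99658671 (plus strand). It stood at 0.676 and 0.174 FPKM on about 40 and 11 fragments, a ratio of 0.258 (0.118 to 0.515). The related genes Foxd1 and Foxd2, which are expressed in jaw mesenchyme, had control levels of 21.6 and 9.54 FPKM and mutant levels of 4.47 and 1.90, ratios of 0.206 (0.181 to 0.234) and 0.199 (0.164 to 0.241). The other SoxE genes did not share the low ratio of Sox10. Sox8 stood at 3.07 and 3.15 FPKM, and Sox9, which is also a cartilage factor, at 15.0 and 13.0.

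The receptor genes were unlike each other. Erbb3 encodes the neuregulin receptor that Schwann cell precursors need for survival and migration, and lies on chromosome 10 from 128569368 to 128589501 (minus strand). It stood at 3.93 and 3.97 FPKM on about 404 and 433 fragments, and the ratio of 1.01 (0.880 to 1.16) was the most precise of the 8. The receptor is also made by epithelia. The epithelial genes Epcam, Krt8 and Krt18 had 24.0, 19.7 and 19.9 FPKM (control) and 25.1, 26.5 and 28.1 (mutant), and 7 of 9 epithelial genes lay above the median gene. The summed level of those 9 was 134 FPKM in control and 153 in mutant tissue. Their part in the Erbb3 value was not tested.

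Ednrb encodes an endothelin receptor of migrating crest, enteric and glial progenitors and melanoblasts, and lies on chromosome 14 from 103814625 to 103844173 (minus strand). Summed over its transcripts it stood at 1.58 and 0.818 FPKM on about 157 and 91 fragments, a ratio of 0.519 (0.397 to 0.677). This gene-level value covers a difference between start sites. The transcript of 3990 bases, which starts at 103843696, was estimated at 1.12 FPKM in control tissue and at only 5.91e-05 in mutant tissue. The transcript of 3878 bases, which starts 477 bases upstream at 103844173, went the other way, at 0.453 and 0.818 FPKM. The downstream start thus held 71.3% of the control level of Ednrb and 0.00723% of its mutant level. The remaining transcript, of 2670 bases, was listed at practically 0 in both libraries.

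The assignment between these Ednrb transcripts rests on few bases. Going by the GENCODE exons, the transcripts of 3990 and 3878 bases share all other exons, and only 47 bases of the upstream first exon and 159 bases at the downstream start tell them apart. The Ednrb window printed above lies just before the downstream start, inside what GENCODE annotates as the first intron of the upstream transcript. A different leading transcript in the 2 libraries was seen in 9.4% of 7954 genes that have several transcripts and average at least 1 FPKM. In 0.427% of them, 34 genes with Ednrb among them, the leading control transcript held under 0.1% of the gene in the mutant. With the most abundant transcript alone, Ednrb had a log2 ratio of 0.32, above 0, in place of -0.50 for the sum.

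**Figure D2:**
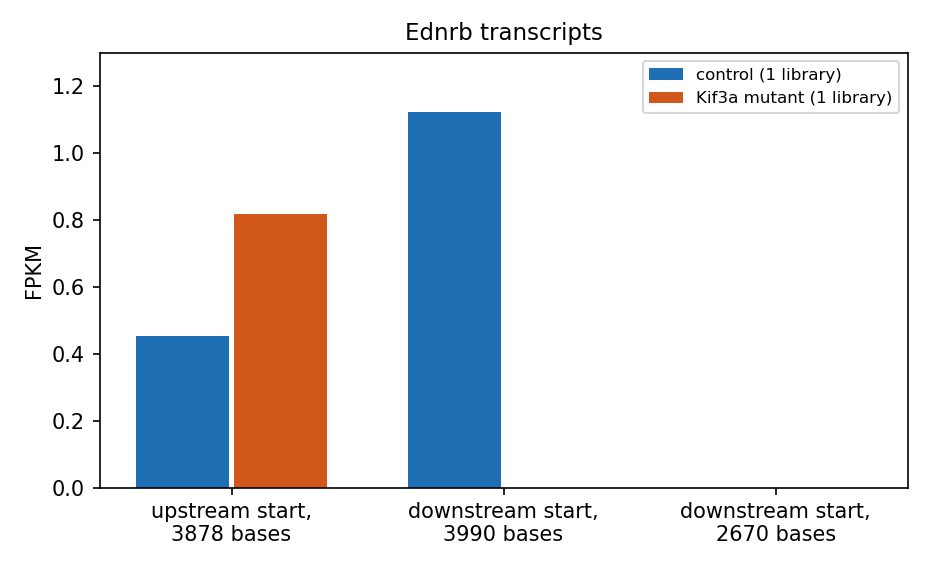
FPKM of the 3 deposited Ednrb transcripts in the control and the mutant library (bars, 1 library each, axis from 0). The downstream start has 1.12 FPKM in the control and no visible bar in the mutant, while the upstream start has 0.453 and 0.818.

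Endothelial cells also express endothelin receptors. Of 9 endothelial genes, 8 lay below the median gene. Their summed level was 87.2 FPKM in control and 57.5 in mutant tissue, with Cdh5 at 13.8 and 9.24, Emcn at 13.7 and 10.6 and Sox18 at 13.8 and 6.98. Their part in the Ednrb value was not tested.

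Gfra3, the coreceptor for artemin that acts with Ret, lies on chromosome 18 from 34689903 to 34720387 (minus strand). It stood at 0.409 and 0.0610 FPKM, on about 20 and 3 fragments. Its ratio of 0.149 was the lowest of the 8 but also among the least precise (0.0291 to 0.498).

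The genes for effector and structural proteins spread just as widely. Fabp7, a fatty acid binding protein abundant in Schwann cell precursors, satellite glia and radial glia, lies on chromosome 10 from 57784923 to 57788450 (plus strand). Its level was 2.61 FPKM in control and 0.608 in mutant tissue, on about 49 and 13 fragments. This was 4.28-fold lower in the mutant (2.28 to 8.68). Its transcript of 762 bases is the shortest of the leading transcripts, and genes of that length had a typical ratio of 0.800 between these libraries. With that length trend removed the Fabp7 ratio was 0.292.

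Cdh19, a cadherin that is characteristic of Schwann cell precursors, lies on chromosome 1 from 110889195 to 110977372 (minus strand). It stood at 0.248 and 0.242 FPKM on about 19 and 21 fragments. The ratio of 0.977 came with a wide interval (0.501 to 1.92), so a difference of up to nearly 2-fold in either direction was not detectable at this depth. S100b, a calcium-binding protein of maturing glia, lies on chromosome 10 from 76253836 to 76261319 (plus strand) and overlaps Dip2a of the opposite strand in the annotation. It was listed at 0.0649 and 0.0379 FPKM, about 3 and 2 fragments. These values are no higher than what 3 fragments would give, 0.0694 and 0.0595 FPKM, so no ratio is given.

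Set against all genes, these differences read as follows. A log2 ratio was taken as log2((mutant FPKM + 1) / (control FPKM + 1)), which pulls low genes towards 0. Only Fabp7, with -1.16, was at least 2-fold lower on that scale, 1 of 8, and 0 of 8 were at least 2-fold higher. Of the 12259 genes that average at least 1 FPKM over both libraries, 1.36% were at least 2-fold lower and 0.767% at least 2-fold higher. The 3 genes Erbb3, Fabp7 and Ednrb reached that mean, and the other 5 did not. The mutant values of Fabp7 (0.608) and Ednrb (0.818) lie under 1 FPKM, so both reached it only through the control library. Counts among the 8 therefore only describe these genes and are not set against the shares of all genes. The median log2 ratio of all 8 was -0.46, and that of the 12259 genes was -0.13. Of the 8, 5 (Sox10, Foxd3, Fabp7, Ednrb and Gfra3) lay below this median gene. By construction 50% of the 12259 genes lie below it, but Sox10, Foxd3 and Gfra3 are not among those genes. Fabp7 and Ednrb are among them only through the control library. The count of 5 and the median of the 8 therefore only describe these genes.

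Since the added 1 exceeds most of these levels, the plain ratio was used as well, a choice made after the values were seen. In the range of 0.2 to 4 FPKM, which holds all of the 8 but S100b, 11.3% of 5402 genes had a mutant value of at most 0.5 of the control value. Fabp7, Sox10, Foxd3 and Gfra3 did, 4 of 7. The range was set on the mean of both libraries, and the mutant values of Foxd3 and Gfra3 lie under 0.2 FPKM, so they entered it only through the control library where they are high. The count of 4 therefore only describes these genes and is not set against the share of all genes. A ratio of 2 or more was found for 8.22% of the 5402 genes. It was found for 0 of the 7, which likewise only describes them, since Foxd3 and Gfra3 entered through a high control value. The count of 4 was the same with the length trend removed. For 5 of the 8, these 4 and Ednrb, the whole counting interval of the ratio lay below 1. The share of all genes with such an interval is not given, so this count only describes these genes. Genes of the leading transcripts' lengths had typical ratios between 0.800 (Fabp7) and 0.950 (Erbb3).

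**Figure D3:**
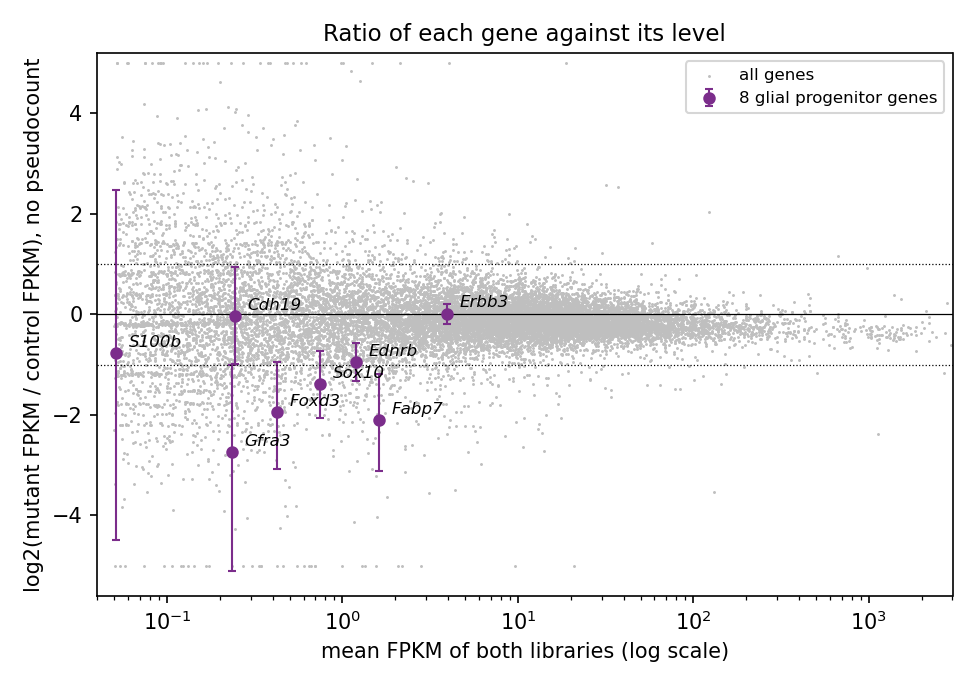
Plain log2 ratio of mutant to control FPKM against mean FPKM (log axis) for all genes (grey, values beyond 5 drawn at the edge) and the 8 genes (purple, bars are 95% counting intervals, dotted lines mark 2-fold). Gfra3, Fabp7, Foxd3 and Sox10 lie under the lower dotted line, and the scatter of all genes widens towards low levels.

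Other genes of Schwann cell precursors and Schwann cells did not share one direction. Of 23 such genes, 15 had a mean FPKM of 1 or more, of which 7 lay below and 8 above the median gene, with a median log2 ratio of -0.12. Pmp22, a myelin protein gene that mesenchyme also expresses, was the only one of the 15 at least 2-fold lower on the log2 scale, at 21.1 and 8.73 FPKM (plain ratio 0.413, 0.368 to 0.463). Gap43, of growing axons and immature Schwann cells, stood at 34.3 and 42.4 FPKM, and Sox2, a factor of glial precursors and of oral epithelium, at 6.002 and 8.52. Egr2, the switch to myelination, was listed at 0 in the control and at 0.0359 in the mutant. Egr2 and, below, Ngfr are named after their values were seen.

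The partners of Erbb3 were measured too. Erbb2, the kinase that pairs with it, stood at 14.4 and 10.7 FPKM (ratio 0.741, 0.692 to 0.795), and Egfr at 1.56 and 1.54. Nrg1, a neuregulin ligand gene, was higher in the mutant, at 0.956 and 2.50 FPKM on about 45 and 130 fragments. Its ratio was 2.62 (1.85 to 3.76), summed over 6 transcripts. Which cells made this RNA was not tested. Nrg4 stood at 1.15 and 1.21 FPKM. On the log2 scale 0 of the 4 measured partners at or above the mean of 1 FPKM were at least 2-fold different, and 1 of them (Erbb2) lay below the median gene. The control value of Nrg1 lies under 1 FPKM, so Nrg1 reached that mean only through the mutant library.

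Among the endothelin genes, Ednra, the receptor of jaw mesenchyme, was far more abundant than Ednrb, at 23.7 and 19.7 FPKM. Edn3, the ligand that acts on Ednrb in crest cells, stood at 8.60 and 5.05 FPKM, a ratio of 0.587 (0.518 to 0.665). The genes Ece1 and Ece2, named for enzymes that release active endothelin, had 16.1 and 18.7 FPKM in control and 15.6 and 12.3 in mutant tissue. The Ece2 value is summed over 9 transcripts, of which the most abundant has only 984 bases. Whether that transcript encodes the enzyme was not tested. Of the 4 endothelin genes that average at least 1 FPKM, 3 lay below the median gene, and 0 passed 2-fold on the log2 scale.

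In the GDNF family, the 3 other coreceptor genes that average at least 1 FPKM had lower values in the mutant. Both such ligand genes had higher ones, though the interval of Nrtn included a ratio of 1. Gfra1, Gfra2 and Gfra4 had 2.68, 2.74 and 2.56 FPKM in control and 1.53, 0.986 and 1.13 in mutant tissue. The ratio of Gfra2 was 0.360 (0.276 to 0.467). Its mutant value lies under 1 FPKM, so Gfra2 reached that mean only through the control library. Artn, the artemin gene whose product binds the Gfra3 protein, stood at 1.27 and 2.61 FPKM, a ratio of 2.06 (1.51 to 2.82). Nrtn stood at 3.05 and 4.04 FPKM, a ratio of 1.32 (0.983 to 1.79). The ligand genes Gdnf and Pspn did not reach a mean of 1 FPKM. Named after their values were seen, they had 0.374 and 0.231 FPKM in control and 0.322 and 0.513 in mutant tissue. Ret, the shared signalling receptor, was close to absent at 0.0130 and 0.0435 FPKM, about 2 and 9 fragments. On the log2 scale 0 of the 5 genes that average at least 1 FPKM were at least 2-fold different.

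**Figure D4:**
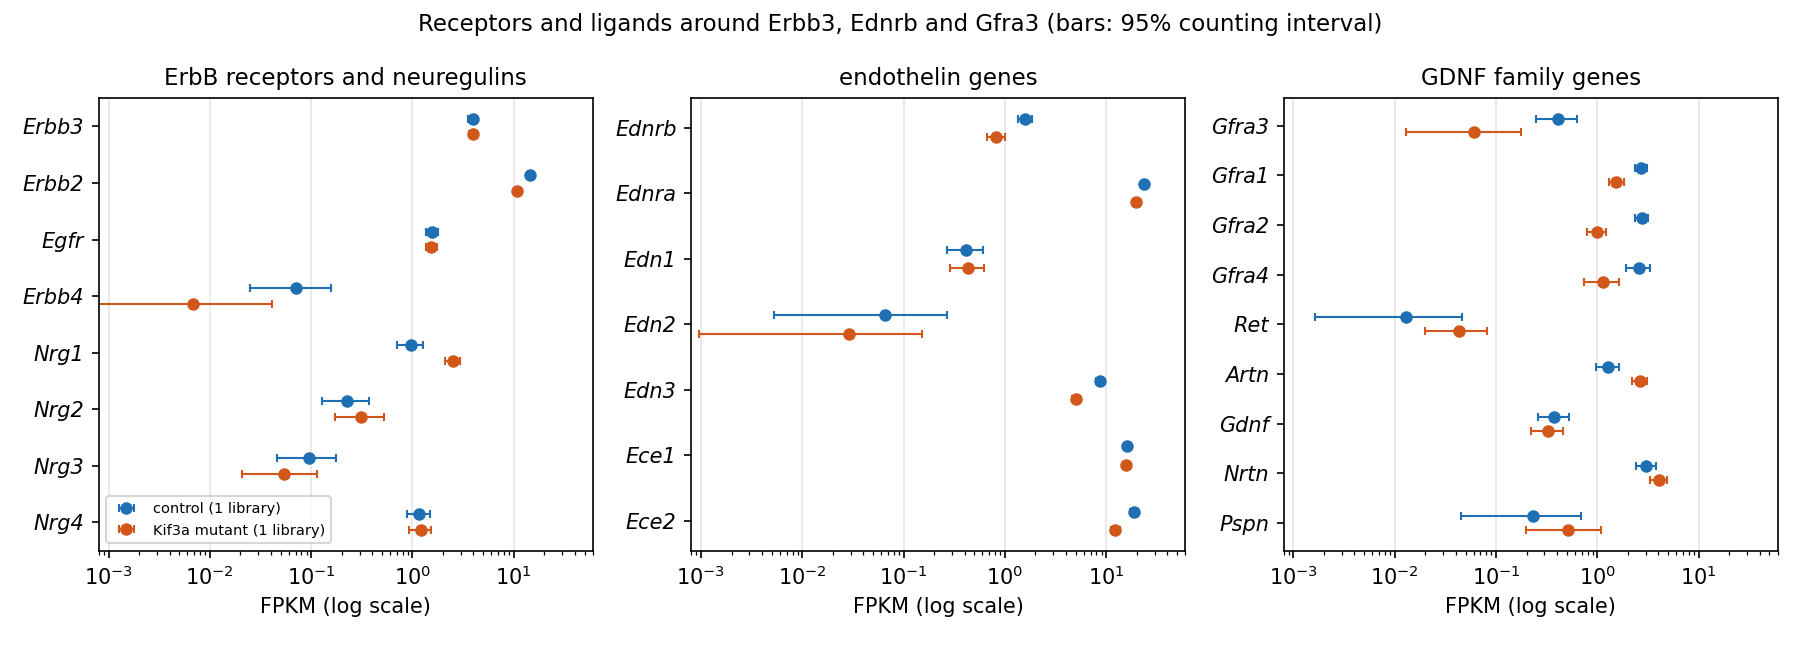
FPKM (log axis) in the control and the mutant library of Erbb3, Ednrb and Gfra3 and of the receptors, ligands and converting enzymes around them, with 95% counting intervals as bars. Nrg1 and Artn lie higher in the mutant, at 2.50 and 2.61 FPKM, and Edn3, Gfra1, Gfra2 and Gfra4 lower.

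Genes of the cells that surround, precede or arise from glial progenitors were read beside these values. Of 12 crest progenitor factors, 10 had a mean of 1 FPKM or more, of which 7 lay below the median gene and 0 passed 2-fold, with Twist1 at 181 and 137, Msx1 at 40.0 and 51.7 and Snai1 at 24.7 and 19.6 FPKM. Ngfr, the neurotrophin receptor of crest cells, glia and neurons, which is also among the 23 Schwann cell genes, stood at 3.40 and 1.69 FPKM, a plain ratio of 0.499 (0.408 to 0.608). The labelled tissue was checked against 8 genes of facial mesenchyme. All 8 stood at 34.7 FPKM or more in both libraries, with Prrx1 at 143 and 165 and Hand2 at 89.9 and 67.4, and 0 passed 2-fold.

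Axonal genes were low and mixed. Of 16 measured sensory neuron genes, 5 had a mean of 1 FPKM or more, and 6 were under 0.1 FPKM in both libraries. Their summed level was 47.3 FPKM in each library. Tubb3 stood at 8.92 and 6.29 FPKM and Isl1, which is also an epithelial and mesenchymal gene of the jaw, at 5.53 and 9.62. The neurofilament genes Nefm and Nefl had 1.40 and 1.58 FPKM in control and 0.268 and 0.742 in mutant tissue. Their ratios were 0.191 (0.116 to 0.302) and 0.471 (0.316 to 0.693). Nefm had a mean of 0.837 FPKM, and Nefl reached a mean of 1 only through the control library. Dcx was higher in the mutant, at 1.58 and 2.12 FPKM, a ratio of 1.34 (1.17 to 1.54). Of the 5 genes, 2 lay below the median gene and 3 above. Under that mean, Stmn2 was also lower, at 0.761 and 0.300 FPKM. The ratio of Elavl4 was 0.846 (0.589 to 1.22). Nefm, Nefl, Dcx, Stmn2 and Elavl4 are named after their values were seen. The part of the nerve content of each pool in the glial values was not tested.

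Of 10 pigment cell genes, 5 were under 0.1 FPKM in both libraries. Mitf, the melanocyte master factor, stood at 0.464 and 0.737 FPKM, Kit at 6.78 and 8.04 and Trpm1 at 3.63 and 4.38. Autonomic neuron genes summed to 1.62 and 1.38 FPKM, with Th at 1.20 and 0.916, and Chrna3 stood at 0.254 and 0.408. Of the 9 genes of central glia, which share Fabp7, 3 had a mean of 1 FPKM or more: Vim, which mesenchyme makes in quantity, stood at 132 and 73.0 FPKM, Nes at 9.84 and 9.90 and Slc1a3 at 3.43 and 2.42. Olig2 and Pax6 stayed under 0.1 FPKM in both libraries.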

How the data were processed

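Neither the aligner nor the strandedness or the version of the quantifier is stated in the sources used here. The authors deposited 1 table per library with FPKM, coverage (a signal of mean read depth) and length for each of 59120 transcripts, per the file headers; the naming of the tables gives Cufflinks. Per the submitters' processing notes the genome build is mm9, but of 45475 transcripts with a symbol in GENCODE M21 (GRCm38), 72.1% shared a start or an end with it, so coordinates are given on GRCm38, 1-based.

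Spaces inside gene names had shifted the columns of 65 lines per table, which were left out. FPKM was summed by symbol with Python 3.11.15 and pandas 2.3.3. Deposited coverage times length, divided by 156 (control) or 153 (mutant) bases per fragment, gave approximate fragments; this yield was the median of values from 80 to 220 bases among genes with 1 transcript of over 1500 bases. Clopper-Pearson intervals (SciPy 1.17.1) were computed on these. With 1 library per group there is no test.

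The members and lists were chosen with earlier results of these data known. Named genes were all 8 members and their transcripts of at least 0.1 FPKM, the 3 most abundant genes of each list, genes with a mean of at least 1 FPKM and a 2-fold difference, and all such genes of the receptor and ligand lists; exceptions are marked in the text, and some genes meeting this rule are not reported here. Alternatives were other pseudocounts, filters and scalings, the leading transcript, removal of the length trend (a running median over genes ordered by length), transcript status, and, added after the values were seen, coverage and the plain ratio.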

Additional observations from a re-analysis of the deposited data

How the results depend on the processing

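The median log2 ratio of the 8 genes was -0.46 and stayed below 0 under every alternative run. It was -1.03 with a pseudocount of 0.1, -0.11 with 5, -0.32 after centring on the median gene, -0.42 with upper quartile scaling, -0.28 with TPM-like scaling, -0.38 when transcripts under 200 bases were left out of that scaling, -0.22 with the most abundant transcript alone, -0.43 with the length trend removed and -0.41 with coverage in place of FPKM. The median gene itself was at -0.13 as reported, -0.15 with a pseudocount of 0.1, -0.09 with 5 and -0.15 with the most abundant transcript alone. A value below 0 is therefore not by itself a difference from the typical gene. The count of genes at least 2-fold lower, 1 of 8, was 4 with a pseudocount of 0.1 and 4 with the plain ratio. It was 0 with a pseudocount of 5 and 0 with TPM-like scaling, which moved the median of all genes to 0.40. Counting the analysis as reported, Sox10, Foxd3, Fabp7 and Gfra3 lay below the median gene in 13 of 13 settings, Ednrb in 12, S100b in 7, Cdh19 in 3 and Erbb3 in 0. Of 96 values of single genes under an alternative, 80 stayed inside their counting interval, 15 left it without a reversal of a direction that the interval had set, and 1 reversed: Ednrb had 0.32 with the most abundant transcript alone, against -0.50, since the upstream start leads over both libraries. Depth limits Gfra3, Cdh19 and S100b most. No paired analysis was possible because each group has 1 library.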

Other observations

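The most abundant relatives of Fabp7 and S100b were read beside them. Fabp5, the epidermal fatty acid binding protein gene, had 241 FPKM in control and 203 in mutant tissue, against 2.61 and 0.608 for Fabp7. Its ratio of 0.844 (0.813 to 0.876) became 1.04 with the length trend removed, whereas that of Fabp7 became 0.292. Among the S100 genes, S100a11 stood at 176 and 145 FPKM and S100a10 at 47.0 and 35.7, against 0.0649 and 0.0379 for S100b. Zfp488, an oligodendrocyte-lineage zinc finger gene picked out after its value was seen, was higher in the mutant at 2.64 and 5.55 FPKM, a ratio of 2.10 (1.80 to 2.45).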
